A study of Mus musculus with 18 samples.

Results

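The Schlafen family was followed here as 7 protein-coding mouse genes, Slfn1, Slfn2, Slfn3, Slfn4, Slfn5, Slfn8 and Slfn9, taken by gene name from a table of 21734 genes, and all 7 passed the filter on low counts that left 11357 genes for testing. RNA from bone marrow-derived macrophages (BMDMs) was sequenced in 18 libraries, 3 in each of 6 groups, from mice of a 129/B6 mix aged 6 to 7 months, 3 per genotype. This age is that of the study's BMDM culture methods. The study also reports that replicates were split between sequencing and mass spectrometry, and its mass spectrometry methods give a younger age. Wild-type (WT) mice were compared with mice lacking the miR-146a hairpin on both alleles (KO) and with mice homozygous for the 3′F allele, in which the seed of miR-146a is kept and its 3′ part is altered. Marrow had been grown for 8 to 9 days in 10 ng/ml M-CSF, and each genotype was harvested 16 h after a medium change without LPS (resting) or with 1 ng/ml LPS. Each mutant line came from its own gene-targeted V6.5 embryonic stem cells and was bred separately after backcrossing to C57BL6/J, and the labels give neither the line from which the WT mice came nor whether libraries with one replicate number came from one mouse. The hairpin itself is not a row of the protein-coding table, so the genotype labels were not checked against the targeted gene.

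Schlafen genes encode cytoplasmic and nuclear proteins that share a conserved core and are found mainly in mammals, where many of them are induced by interferon and act on cell growth, on the handling of tRNA or on virus replication. They fall into short forms made of little more than the core (Slfn1, Slfn2), intermediate forms with an added linker domain (Slfn3, Slfn4) and long forms with a helicase-like domain at the C terminus (Slfn5, Slfn8, Slfn9). In macrophages LPS acts through Toll-like receptor 4, which switches on NF-kB and, through secreted interferon-beta, the interferon-stimulated genes.

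The 7 genes lie side by side on chromosome 11 within chr11:82951349-83215154 (263.8 kb, GRCm38, GENCODE M21), in the order Slfn5, Slfn9, Slfn8, Slfn2, Slfn1, Slfn4 and Slfn3. Slfn9 and Slfn8 are on the minus strand and the others on the plus strand. The miR-146a hairpin is on the same chromosome, 39.6 Mb away. The annotated coding sequences were 1014 bases for Slfn1 and 1137 for Slfn2, 1923 for Slfn3 and 1809 for Slfn4, and 2655 for Slfn5 and 2733 for both Slfn8 and Slfn9. The coding sequences of Slfn8 and Slfn9 were 92.7% identical and those of Slfn3 and Slfn4 92.2% identical, and no other pair of members exceeded 77.1%.

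The promoters were read because the members changed together, and the stretches that hold a matched motif are shown with the match in capitals (RefSeq windows of GRCm38.p6 from 250 bases before to 50 after a start, 1 window per member and 2 for Slfn8, all printed 5′ to 3′ on the strand of the gene). The core of the interferon-stimulated response element, written GAAANNGAA and searched on both strands, was found in the long members Slfn5, Slfn8 and Slfn9, and in 8.56% of all 32851 windows. It occurred at 2 places in Slfn5 (chr11:82951917-82952008, plus strand), and once in Slfn9 (chr11:82991836-82991904, minus strand) and in each window of Slfn8 (shown: chr11:83020819-83020887, minus strand). Slfn1 (chr11:83116747-83116816, plus strand) held an NF-kB motif and Slfn4 (chr11:83175122-83175188, plus strand) an AP-1 motif, TGANTCA, which were present in 4.51% and 7.81% of windows.
Slfn5: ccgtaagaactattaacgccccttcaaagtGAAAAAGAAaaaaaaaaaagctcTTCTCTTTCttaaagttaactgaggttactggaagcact
Slfn8: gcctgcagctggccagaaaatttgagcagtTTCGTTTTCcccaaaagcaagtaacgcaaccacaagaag
Slfn9: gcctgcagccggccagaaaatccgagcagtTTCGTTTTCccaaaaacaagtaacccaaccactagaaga
Slfn1: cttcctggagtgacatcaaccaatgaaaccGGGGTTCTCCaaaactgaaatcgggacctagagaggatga
Slfn4: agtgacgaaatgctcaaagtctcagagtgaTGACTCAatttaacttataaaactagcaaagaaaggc

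In the Slfn8 window shown the match lay 39 to 47 bases before the start, and in Slfn9 36 to 44 bases before it. From the start of the other Slfn8 window the same match lay 127 to 135 bases away. The NF-kB motif was also found in Slfn9, the STAT motif TTCNNNGAA (8.3% of windows) in no member, and none of these 4 motifs in the windows of Slfn2 or Slfn3. A match is a stretch of letters and was not examined as a binding site.

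Because the mice differ in miR-146a, the members were also read for its seed match, AGTTCTC, or the related GTTCTCA. The mature miRNA is shown with its seed (bases 2 to 8) in capitals, beside its paralog miR-146b, whose hairpin is intact in all 3 genotypes, and the 1 matching site in an annotated 3′ UTR of a member, at base 620 of that of Slfn9.
miR-146a-5p: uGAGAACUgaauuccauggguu
miR-146b-5p: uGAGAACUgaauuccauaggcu
Slfn9 site: atcagaacccAGTTCTCcctccacagcg
Of 20794 genes with an annotated 3′ UTR, 18.16% held such a match. The other 6 members held none. The shorter stretch common to both matches, GTTCTC, occurred at 1 place each in the annotated 3′ UTRs of Slfn5 and Slfn8. The share of all genes with this shorter stretch was not counted.

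Library totals ran from 4071084 to 19818043 counts. The 8 macrophage markers were read in every library (Adgre1, which encodes F4/80, at 1134 CPM or more, where CPM are counts scaled to a library of 1000000), while the T cell receptor gene Cd3e was at 0 in all 18 libraries and the summed levels of B, NK, erythroid, dendritic and stromal cell markers reached at most 2.86 CPM. The 5 T cell markers summed to at most 0.612 CPM in resting groups and to between 1.61 and 4.10 CPM with LPS, most of it from Cd247, and the 7 neutrophil markers summed to 13.4 to 66.0 CPM, mainly S100a8. Whether these cells contribute to the Schlafen levels was not tested. The resting KO replicate 3 library stood apart from its group, with a score of 19.7 on the first principal component (61.8% of the variance of tested genes) against -28.2 and -31.5 for replicates 1 and 2 and 58.8 to 70.6 for KO with LPS. Resting 3′F replicate 3, the library of lowest total, stood apart on the second component, at 50.3. Member calls for LPS in KO and 3′F, and for resting KO against WT and 3′F, are given with and without the library concerned. The interferon and proliferation lists are given without resting KO replicate 3 but not without resting 3′F replicate 3. Neighbouring genes are given with all libraries only.

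In resting WT BMDMs the family was dominated by Slfn2, whose protein is needed for T cells and monocytes to stay quiescent. Per kb of exon, which allows levels of different genes to be set side by side, Slfn2 stood at 210 ± 36.3 CPM per kb (SD, n = 3), followed by Slfn5 at 24.5 ± 5.12, a nuclear long form. Slfn9 at 7.73 ± 1.05, Slfn8 at 7.64 ± 2.09 and Slfn3 at 4.68 ± 0.623 came next, of which Slfn9 and Slfn8 did not differ beyond their spread. Slfn4 (0.239 ± 0.0802) and Slfn1 (0.108 ± 0.0893) were close to the limit of detection, with 8 to 20 and 1 to 4 counts per library. Slfn2 thus made up 80.4% to 85.4% of the family sum in each resting WT library and Slfn5 7.82% to 10.7%. With LPS the share of Slfn2 fell to between 58.3% and 71.1% and that of Slfn5 was 20.4% to 26.2%, with no overlap between the states for either gene, although 3 libraries against 3 cannot give an exact permutation p below 0.10 and the shares were not tested. The family sum was 255 ± 41.1 CPM per kb in resting WT and 1128 ± 354 with LPS.

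**Figure D1:**
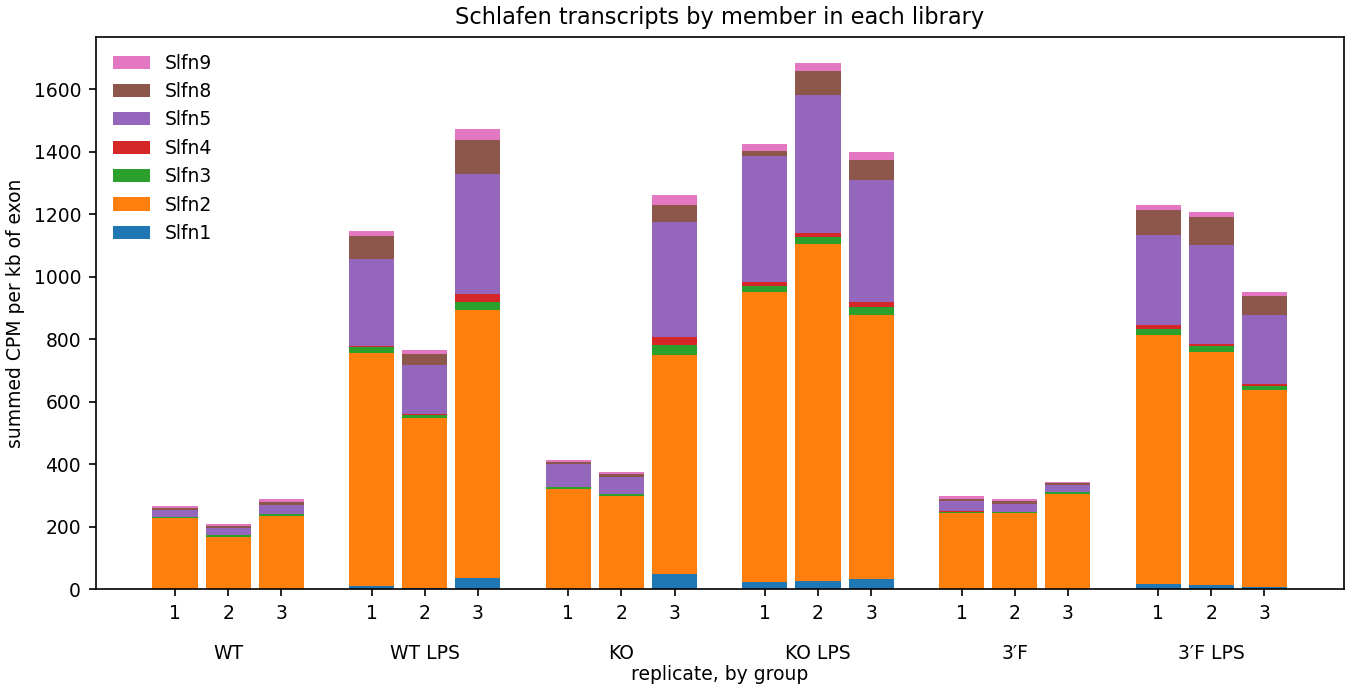
Stacked bars of the summed Schlafen level in each of the 18 libraries, in CPM per kb of exon, coloured by member. Slfn2 fills most of every bar, Slfn5 widens with LPS, and resting KO replicate 3, at 1264 CPM per kb, reaches the height of the LPS bars while the other resting bars lie between 210 and 414.

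The first question was how the family responded to LPS in WT cells. By edgeR's quasi-likelihood test over all 18 libraries, with Benjamini-Hochberg adjustment over all tested genes, 6 of the 7 members rose and none fell, where 16.3% of all tested genes were called higher. The median log2 fold change over the 7 members was 3.25, against 0.02 over all tested genes. All 6 calls held when any 1 of the WT libraries was left out. In every member, all 3 LPS libraries lay above all 3 resting libraries. The share of all tested genes whose libraries separate in this way was not counted, here or for later comparisons. Such separations are therefore given as description only.

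Of the short forms, Slfn1, which slows the growth of thymocytes when overexpressed, rose from 0.0657, 0.151 and 0.387 CPM in resting replicates 1, 2 and 3 to 20.9, 6.96 and 66.0 CPM with LPS. The fitted log2 fold change was 7.36 ± 1.78 (SE, adjusted p = 0.00572), but the resting counts were only 1, 2 and 4. The ratio of pooled counts, scaled for depth, was 170, with a 95% interval of 82.0 to 422 that covers counting error only. The fitted value was 6.19 without LPS replicate 3 and 8.09 without resting replicate 3. Slfn2 rose from 378, 281 and 391 CPM to 1238, 905 and 1429 CPM (log2 fold change 1.77 ± 0.27, adjusted p = 0.000181). Thus the most abundant member had one of the smaller relative responses and the scarcest member the steepest.

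The intermediate forms, similar in coding sequence, had fitted responses of unlike size, a difference that was not tested. Slfn4, known from activated macrophages and from myeloid cells of the inflamed stomach, rose from 1.31, 0.753 and 0.774 CPM to 23.7, 9.96 and 98.5 CPM (log2 fold change 5.49 ± 1.39, adjusted p = 0.00756). The 3 LPS libraries lay far apart here, with replicate 3 well above the others, and without it the log2 fold change of Slfn4 was 4.11 (adjusted p = 0.0444). Slfn3, studied mainly for its part in the maturation of intestinal epithelium, rose from 9.39, 7.98 and 10.4 CPM to 38.2, 23.2 and 50.4 CPM (log2 fold change 2.01 ± 0.52, adjusted p = 0.00894).

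Among the long forms, Slfn5 rose from 126, 135 and 183 CPM to 1681, 943 and 2329 CPM (log2 fold change 3.48 ± 0.55, adjusted p = 0.000236), and Slfn8 from 25.9, 26.7 and 41.1 CPM to 294, 151 and 445 CPM (3.25 ± 0.73, adjusted p = 0.00326). Slfn9 stood at 39.2, 47.7 and 51.4 CPM at rest and at 100.4, 63.3 and 199 CPM with LPS, and narrowly missed the threshold (log2 fold change 1.39 ± 0.51, adjusted p = 0.0528). It was called with no filter on low counts, with the WT groups fitted alone and with limma-voom weights. Without LPS replicate 2 it was called too (edgeR, adjusted p = 0.0276), and without LPS replicate 3 it was not (0.294). Slfn8 and Slfn9, 92.7% identical in coding sequence and both with the response element core shown above, began at similar levels per kb and stood apart after LPS, at 72.5 ± 36.0 and 20.2 ± 11.7 CPM per kb. The difference between these 2 genes was not tested. The WT libraries with LPS differed in the same order for every member, replicate 3 highest for 7 of 7 and replicate 2 lowest for 7 of 7. The mean log2 CPM of 25 interferon-stimulated genes had that order too, at 8.15, 7.07 and 8.87 in replicates 1, 2 and 3.

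**Figure D2:**
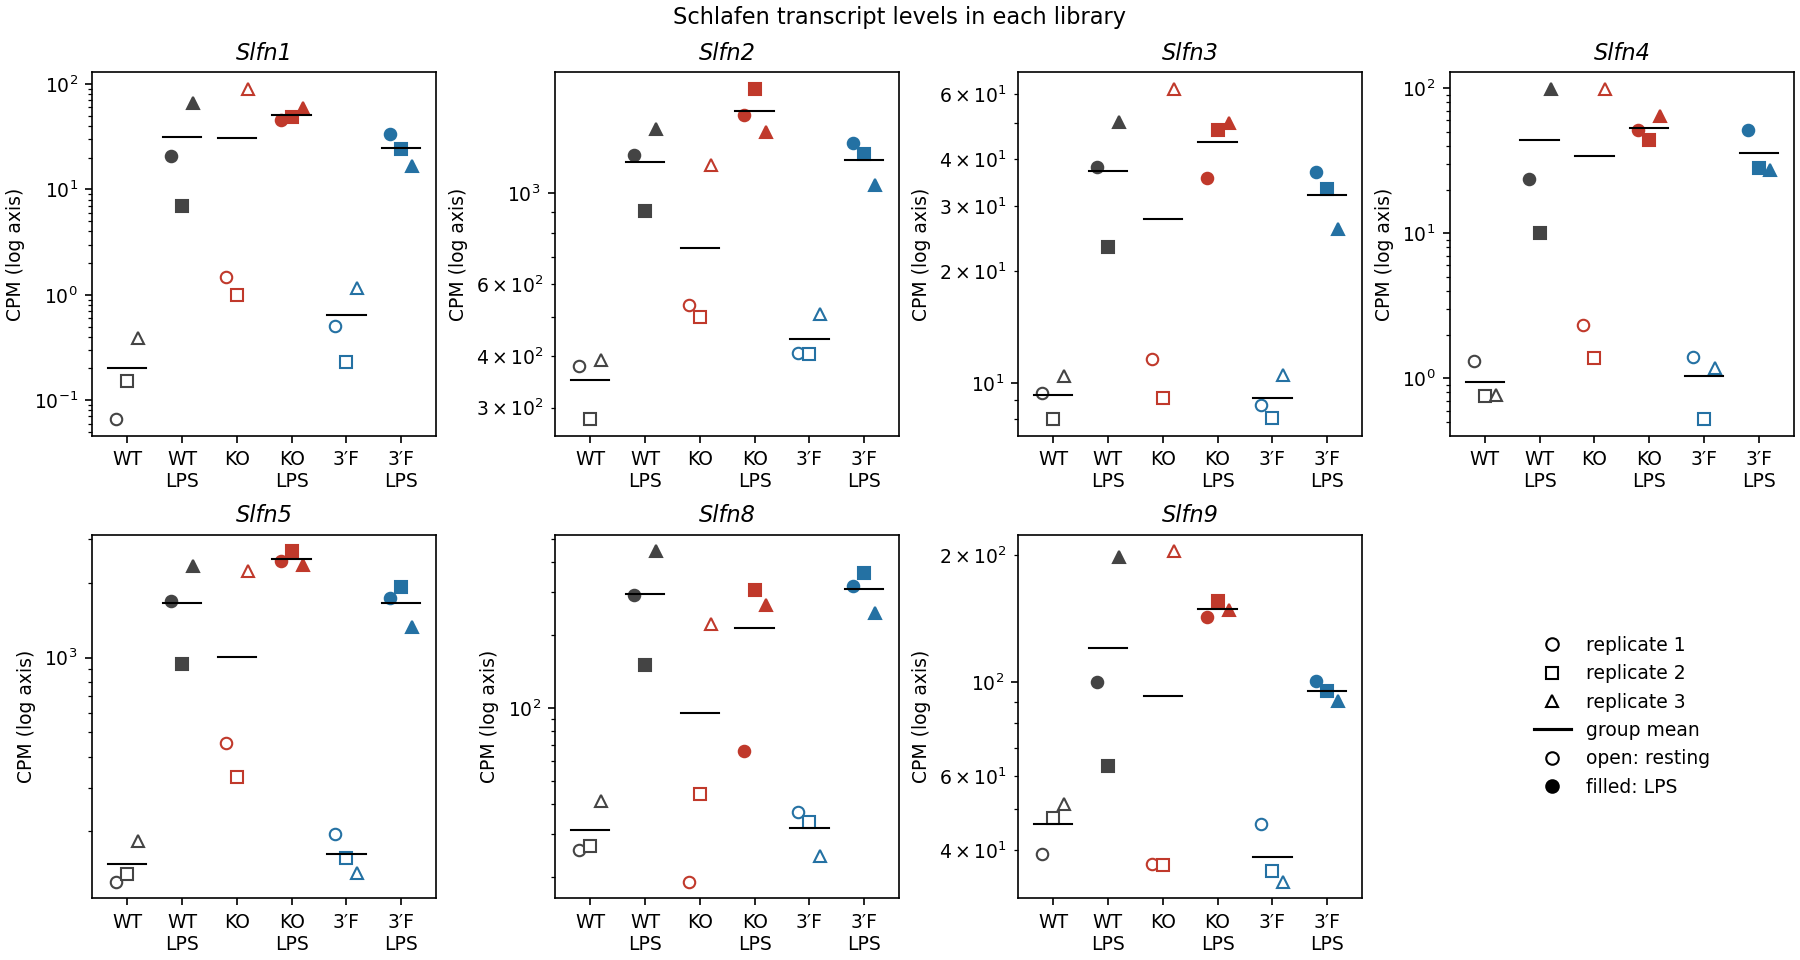
Level of each Schlafen gene in every library, in CPM on a log axis, by group, with a marker for each replicate and a line at the group mean. LPS libraries of WT and 3′F lie above their resting libraries in all 7 panels, and the open triangle of resting KO replicate 3 lies at or near LPS levels, for example at 90.3 CPM for Slfn1 where the other resting KO libraries are at 1.48 and 0.994.

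BMDMs carrying the 3′F allele gave the same 6 calls as WT. These 6 members rose, where 17.2% of tested genes were called higher, with a median of 3.26 over the 7. Slfn5 rose from 195, 156 and 136 CPM to 1742, 1922 and 1325 CPM (log2 fold change 3.35 ± 0.55, adjusted p = 0.000284) and Slfn2 from 407, 406 and 507 CPM to 1327, 1245 and 1048 CPM (1.46 ± 0.27, adjusted p = 0.000797). Slfn1 rose from 0.508, 0.232 and 1.17 CPM to 33.6, 24.4 and 16.5 CPM (5.70 ± 1.61, adjusted p = 0.0135), on resting counts of 4 to 9. Slfn4, at 0.521 to 1.41 CPM at rest, rose to between 27.1 and 51.1 CPM. The log2 fold changes of Slfn4, Slfn8 and Slfn3 were 5.14, 3.26 and 1.85. Slfn9 stood between 33.7 and 46.2 CPM at rest and between 90.3 and 101 CPM with LPS, and again missed the threshold (1.30 ± 0.52, adjusted p = 0.0656). Without resting 3′F replicate 2 only 3 members were called, since Slfn1, Slfn3 and Slfn4 then had adjusted p-values of 0.0549, 0.0505 and 0.0502, whereas leaving out the shallow resting replicate 3 left all 6 called.

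The 3′F allele itself was compared with WT in each state. None of the 7 members was called at rest or with LPS, in edgeR, DESeq2 or limma-voom, and none had an unadjusted p below 0.05. The background was as low, with 0% of tested genes called at rest and 0.00881% with LPS. Slfn5 differed by a log2 fold change of 0.13 ± 0.50 at rest and 0.01 ± 0.50 with LPS, and Slfn2 by 0.33 ± 0.27 and 0.02 ± 0.26. For Slfn1 and Slfn4 the resting differences, 1.33 ± 3.05 and 0.04 ± 1.89, carried wide errors, so that changes of several fold were not detectable at this depth. In the interaction test of the 3′F and WT responses to LPS no member was called (0% of tested genes, no member with an unadjusted p below 0.05), with Slfn5 at -0.12 ± 0.71.

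In KO BMDMs the measured LPS response of the family turned on 1 resting library. With all libraries 1 of 7 members was called, Slfn2 (log2 fold change 1.11 ± 0.27, adjusted p = 0.00551), where 14.3% of tested genes were called higher, and the median over the members was 0.77. Slfn5 stood at 455, 332 and 2228 CPM at rest and at 2433, 2679 and 2362 CPM with LPS (1.31 ± 0.51, adjusted p = 0.0677). Slfn1 stood at 1.48, 0.994 and 90.3 CPM at rest and at 45.7, 48.5 and 59.8 CPM with LPS, so that the third resting library exceeded all 3 stimulated ones. Slfn4 had the same pattern, with 2.35, 1.38 and 98.9 CPM at rest and 51.1, 43.7 and 63.8 CPM with LPS. In these 2 genes resting replicates 1 and 2 lay more than 10-fold below every LPS library.

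The other members showed the same split among the resting KO libraries. Slfn2 stood at 533, 498 and 1168 CPM at rest and at 1545, 1794 and 1408 CPM with LPS, Slfn3 at 11.6, 9.10 and 62.0 CPM and at 35.5, 48.1 and 50.1 CPM, and Slfn9 at 37.2, 37.0 and 205 CPM and at 143, 156 and 149 CPM. Replicate 3 was the highest resting KO library for 7 of 7 members, and its Slfn1, Slfn3, Slfn4 and Slfn9 exceeded all 3 KO libraries with LPS. Without this library all 7 members rose with LPS in KO, with log2 fold changes that included 5.34 for Slfn1, 1.62 for Slfn2, 4.80 for Slfn4, 2.66 for Slfn5, 2.76 for Slfn8 and 2.01 for Slfn9, and the largest adjusted p among them was 0.00143. Over all tested genes the count called for LPS in KO, in either direction, also rose without it, from 3059 to 4040. The interaction of KO and LPS was negative for all 7 members with every library in (from -6.58 ± 2.18 for Slfn1 to -0.66 ± 0.37 for Slfn2), but no member passed adjustment in edgeR, DESeq2 or limma-voom, 4 had an unadjusted p below 0.05, and 0.00881% of tested genes were called. Without resting KO replicate 3 the interaction of Slfn5 was -0.82 (adjusted p = 0.926), and those of Slfn3 and Slfn9 turned positive, at 0.09 and 0.61.

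**Figure D3:**
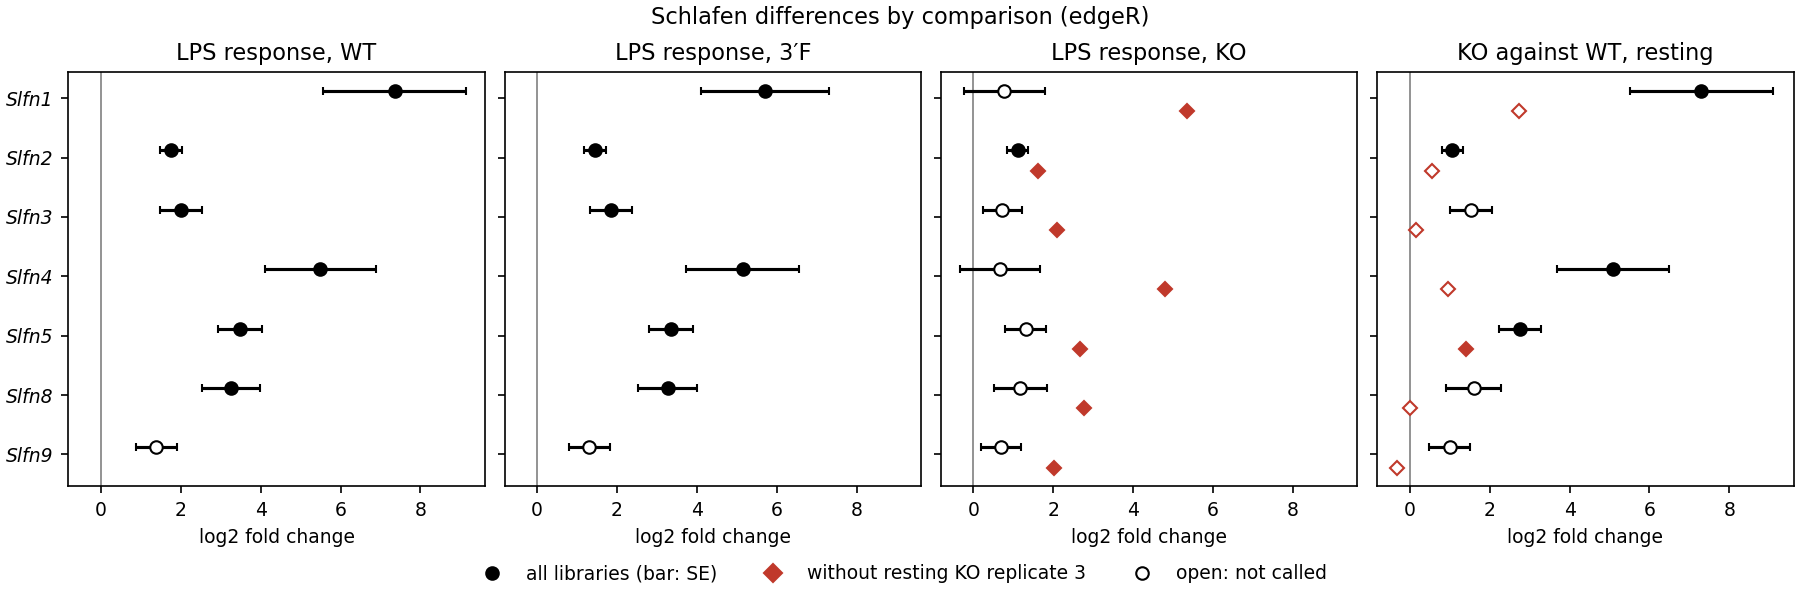
Log2 fold change of each member in 4 comparisons, with SE bars for all libraries (black circles) and the value without resting KO replicate 3 (red diamonds), filled where called at an adjusted p under 0.05. Leaving out that library moves all 7 members to the right for LPS in KO, for example Slfn1 from 0.77 to 5.34, and to the left for KO against WT at rest, where Slfn5 alone stays filled.

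The question of what loss of miR-146a does at rest had the same dependence. Against resting WT, 4 of 7 members were higher in KO with all libraries, where 5.12% of tested genes were called higher: Slfn1 by a log2 fold change of 7.30 ± 1.79 (adjusted p = 0.0177), Slfn4 by 5.09 ± 1.40 (adjusted p = 0.0314), Slfn5 by 2.76 ± 0.54 (adjusted p = 0.00534) and Slfn2 by 1.07 ± 0.27 (adjusted p = 0.02). Without resting KO replicate 3 the call for Slfn5 held, at 1.41 (adjusted p = 0.0083). Slfn1 was then at 2.74 (adjusted p = 0.301), Slfn4 at 0.96 (0.671) and Slfn2 at 0.56 (0.087), Slfn3 and Slfn8 were at 0.17 and 0.01, and Slfn9 was lower, at -0.31. Leaving out resting WT replicate 1 or 2 also left Slfn5 as the 1 called member, and leaving out WT replicate 3 left Slfn2 and Slfn5.

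Slfn5 was the 1 member whose difference from resting WT held whichever of these libraries was left out. Its resting KO libraries, at 455, 332 and 2228 CPM, all exceeded the resting WT libraries (126 to 183 CPM) and the resting 3′F libraries (136 to 195 CPM), and over the 6 fits with 1 library left out the log2 fold change from WT was 1.41 to 3.18, with an adjusted p of at most 0.0345. None of the 4 members was called when the resting KO and WT libraries were fitted without the other groups (Slfn5 at 2.73, adjusted p = 0.0885). Slfn1, Slfn2 and Slfn4 were also higher in every resting KO library than in every resting WT library, at 13 counts or more against 4 or fewer for Slfn1, but only narrowly for Slfn4, at 1.38 CPM in the lowest KO and 1.31 CPM in the highest WT library.

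Against resting 3′F, KO was higher in 3 members, where 6.79% of tested genes were called higher. These were Slfn1 (5.97 ± 1.61, adjusted p = 0.0253), Slfn4 (5.05 ± 1.43, adjusted p = 0.0311) and Slfn5 (2.63 ± 0.53, adjusted p = 0.00786). The resting KO libraries are shared with the comparison against WT. The libraries of KO and 3′F overlapped for Slfn1 and Slfn4 and not for Slfn5. Without resting KO replicate 3 only Slfn5 was called, at 1.28 (adjusted p = 0.0158). The same was true without any 1 of the resting 3′F libraries, whereas 7 and 6 members were called without resting KO replicates 1 and 2.

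With LPS, none of the 7 members was called between KO and WT or between KO and 3′F in edgeR or DESeq2, where 4.79% and 3.88% of tested genes were called, and none had an unadjusted p below 0.05. In limma-voom with quality weights Slfn1 was called against WT (1.19, adjusted p = 0.0439), and with the KO and 3′F libraries fitted without the other groups Slfn1 (0.99), Slfn5 (0.55) and Slfn9 (0.61) were called against 3′F, with adjusted p-values of 0.0102, 0.0164 and 0.000659. Slfn5 was higher in every KO library than in every WT and 3′F library, from 2362 CPM up against at most 2329 and 1922 CPM, with log2 fold changes of 0.59 ± 0.50 and 0.58 ± 0.50. For every member the 3 KO libraries had a smaller SD than the WT libraries. The SDs were 7.43 against 30.8 CPM for Slfn1, 10.2 against 47.7 for Slfn4 and 6.27 against 69.9 for Slfn9. They were less unlike for Slfn2 (196 against 265) and Slfn8 (129 against 147).

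Slfn8 departed from the rest of the family in the KO libraries numbered 1. With LPS it stood at 66.5 CPM in replicate 1 (966 counts) against 308 and 265 CPM in replicates 2 and 3 (4259 and 3718 counts), below every WT library (151 to 445 CPM) and every 3′F library (246 to 362 CPM). At rest KO replicate 1 was again the lowest, at 19.1 CPM against 44.0 and 222 CPM, and below the WT and 3′F minima of 25.9 and 24.3 CPM. Slfn8 made up 1.13% of the family sum in KO replicate 1 at rest and 1.14% with LPS, while the other KO libraries held 2.85% and 4.29% at rest and 4.48% and 4.63% with LPS, and WT libraries with LPS 4.81% to 7.39%. In the same pair of libraries Slfn5 was at 455 and 2433 CPM, the second highest of its group in each state, and Slfn9, the closest paralog, at 37.2 and 143 CPM was within 10% of the other KO libraries save the high resting one. The 2 KO libraries numbered 1 were chosen here for their values, so no test is given, and the cause was not tested. The mice are a 129/B6 mix, and the strain from which each library has its copy of the cluster was not examined, which limits what the Slfn8 level in these libraries stands for. Without KO replicate 1 in the group with LPS, the members called between KO and WT remained 0.

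Across all 18 libraries the members followed unlike companions. For each, tested genes outside the family were ranked by the root mean square difference of centred log2 CPM, and the nearest are named, a description over libraries that share the 6 groups. Slfn5 was closest to Irgm1 (0.156), which encodes an immunity-related GTPase, against a spread of 1.72 of Slfn5 about its own mean. Slfn1 was closest to Ifit2 (0.458) and Ifi209 (0.461), both interferon-induced, and Slfn4 to Phf11b (0.448) and Phf11a (0.514). Slfn3 was closest to Tap2 (0.179), a subunit of the peptide transporter of antigen presentation, and Nt5c3 (0.201). Slfn9 was closest to Cnp (0.208) and Setdb2 (0.241). Slfn2 was closest to Pfkl (0.134), a phosphofructokinase subunit of glycolysis, and Zufsp (0.149). Slfn8 had no companion as near, with Cd274 (0.56), which encodes PD-L1, and F10 (0.618), coagulation factor X. Within the family the nearest pair was Slfn3 and Slfn9 (0.333), not one of the pairs closest in coding sequence, and Slfn1 and Slfn4 were each other's nearest member at 0.672.

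The interferon pathway genes were read beside the family from a fixed list of 10, running from ligand to transcription factors. With LPS in WT 8 of 10 rose and none fell, with a median of 1.26. Ifnb1, the ligand, rose by a log2 fold change of 6.06 (adjusted p = 0.0212), and the receptor chains Ifnar1 and Ifnar2 by 1.14 and 0.85. Irf7, which drives a second wave of interferon, rose by 5.36 ± 0.96 (adjusted p = 0.00061), and the transcription factor genes Stat2 and Irf9 by 3.19 and 1.37. The kinase gene Tyk2 rose by 0.54, whereas Jak1 (0.20 ± 0.14) and Irf3 (0.07 ± 0.10) did not pass the test. With LPS in 3′F 7 rose, and in KO 3 rose (8 without resting KO replicate 3).

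In resting KO against WT 4 of these 10 genes were higher, among them Irf7 (4.79 ± 0.94, adjusted p = 0.00552), Stat2 (2.31 ± 0.53, adjusted p = 0.0127) and Irf9 (1.17 ± 0.20, adjusted p = 0.00288), and 3 without resting KO replicate 3. Ifnb1 did not pass, at 4.64 ± 2.17 (adjusted p = 0.213). Of 25 interferon-stimulated genes outside the family, 25 rose with LPS in WT (median 4.53), 24 in 3′F (median 4.57) and 5 in KO (median 1.37, and 24 with a median of 3.23 without resting KO replicate 3). In resting KO against WT 24 of 25 were higher, with a median of 3.86, and 14 with a median of 1.78 without that library, while none was called between KO and WT with LPS, with a median of 0.60. The mean log2 CPM of the 25 was 5.29 and 4.98 in resting KO replicates 1 and 2, 3.09 to 4.11 in resting WT, 8.77 in resting KO replicate 3 and 8.64 to 9.06 in KO with LPS. Resting KO replicate 3 was thus the highest resting KO library for this list as for the Schlafen genes.

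Proliferation genes were read because Schlafen proteins are known for holding back growth. Of 15 such genes 11 fell with LPS in WT, where 12.3% of tested genes were called lower. In KO against WT 10 were lower at rest (11 without resting KO replicate 3) and 8 with LPS, where 4.27% and 2.90% of tested genes were called lower. In resting KO replicate 3 their mean log2 CPM was 4.51, close to the 4.65 and 4.76 of replicates 1 and 2. It was the lowest resting KO library for this list, and the KO libraries with LPS stood at 4.20, 3.67 and 4.18. Resting and LPS libraries of KO lay close together here, so this list cannot decide whether replicate 3 stood apart in it.

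The genes on either side of the cluster were read for the same comparisons. Within 300 kb of the cluster 17 other genes of the table are annotated, and 9 passed the filter. With LPS in WT the median log2 fold change of the 9 was 0.14. With LPS in 3′F Rffl and Ap2b1 rose by 0.57 and 0.51, in KO none was called, and no neighbour was called between genotypes in either state. Slfn14, the member of the wider family next to the cluster that is known from platelets and reticulocytes, had at most 1 count in any library and Slfnl1 at most 6, and neither was tested.

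**Figure D4:**
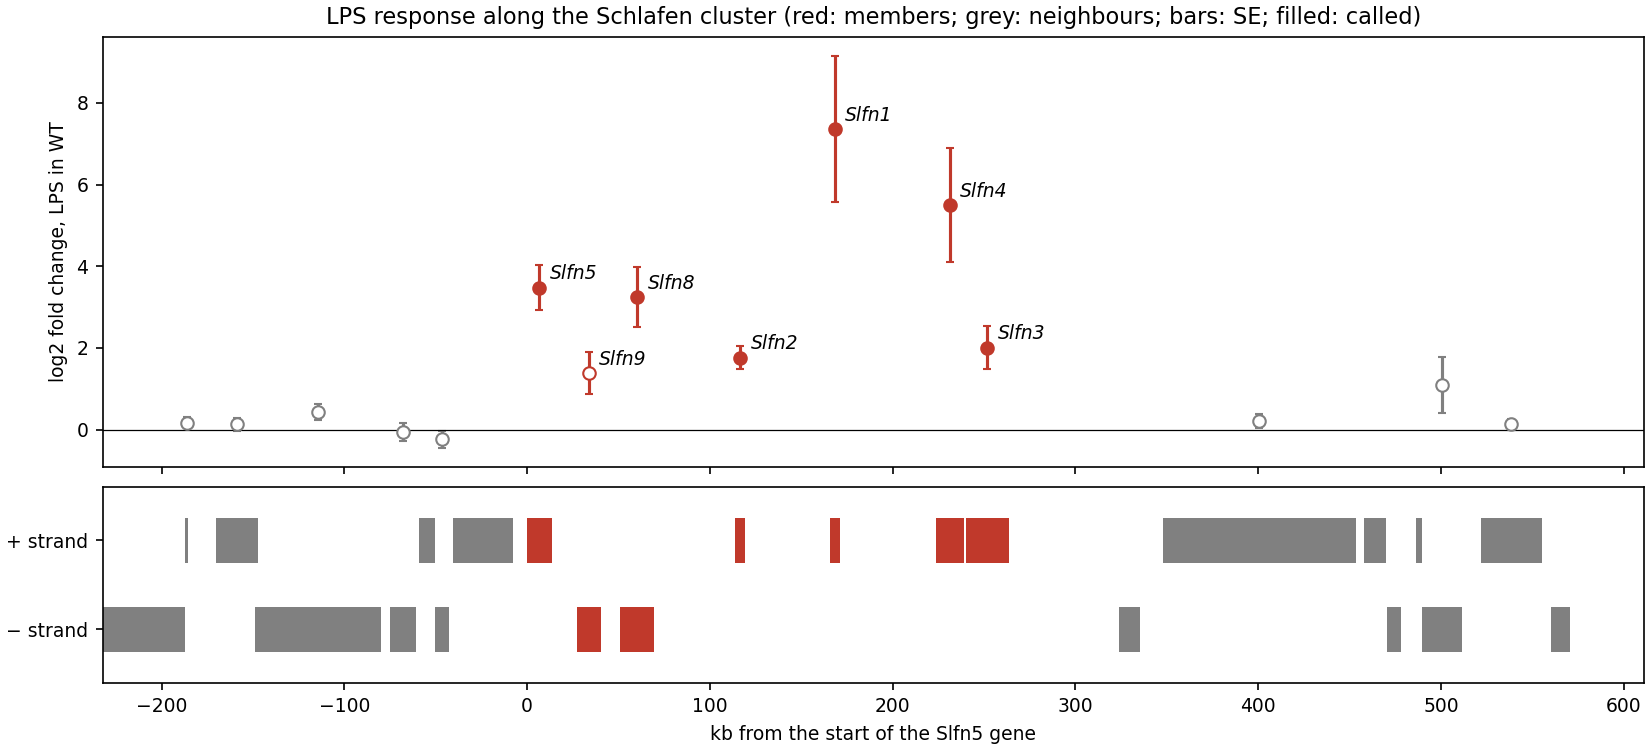
LPS response in WT (log2 fold change, bars SE, filled where called) of the 7 Schlafen genes in red and 8 tested neighbours in grey, placed by distance in kb from the start of Slfn5, above the gene bodies on each strand. All members lie at 1.39 or above, the neighbours other than Mmp28 lie between -0.23 and 0.43, and Mmp28 is at 1.09 with an SE of 0.69.

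Only reads with a high mapping quality had been counted, so stretches shared between members added few or no counts. Of all 50-base stretches of a member's annotated transcripts, 16.0% in Slfn3, 14.6% in Slfn8, 11.9% in Slfn9 and 11.3% in Slfn4 also occurred in another gene, mainly another Schlafen gene or a Schlafen pseudogene, against 4.27% in Slfn2, 3.68% in Slfn5 and 0.61% in Slfn1. Levels of the first 4, and the contrast of Slfn8 with Slfn9, are uncertain to that extent. The counted length of Slfn3, 1983 bases, is shorter than its 3411 annotated bases, so its level per kb depends on which exons were counted.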

How the data were processed

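RNA-seq libraries from rRNA-depleted total RNA had been prepared with a directional kit. Per the study's methods and the submitters' processing notes, the authors trimmed reads with cutadapt 1.8.3, removed rDNA reads and aligned the rest to mm10 with HISAT2 2.1.0, and counted reads of high mapping quality per gene with featureCounts 1.5.3, by strand, on a Gencode annotation. The deposited file holds their raw counts for protein-coding genes, with gene lengths, and no column was left unmapped.

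From these counts, genes were filtered with edgeR 4.0.16 (filterByExpr, 6 groups) and scaled by TMM, and quasi-likelihood tests were run in R 4.3.3 on all 18 libraries, without covariates, for 11 comparisons. SE is the log2 fold change divided by the root of F. CPM are counts per 1000000 of scaled library size, with a prior count of 2 on the log2 scale, and levels per kb use the deposited exon lengths. Calls are two-sided at an adjusted p under 0.05. The test was tested on simulated data. Alternatives were DESeq2 1.42.0, limma 3.58.1 (voom with quality weights), no filter, the groups alone, a replicate block and each library left out. The block was the replicate number within a genotype for LPS responses and interactions. For comparisons between genotypes it was the bare number, shared across genotypes.

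Genes named were the 7 members, the 2 genes most like each (average log2 CPM of at least 1), and lists of pathway, interferon-stimulated, proliferation, neighbouring and marker genes. Results for some items are not reported here. The members and lists were chosen with earlier results of these data known. Where libraries are not from separate mice, p-values measure a spread that may be technical. Sequences are RefSeq's, and seed sites, lengths and identities are from GENCODE M21, in which 21679 gene identifiers matched and 55 did not. With bulk RNA, fewer expressing cells and less RNA per cell cannot be told apart. Counting intervals cover counting error only.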

Additional observations from a re-analysis of the deposited data

How the results depend on the processing

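The count of called members was most sensitive for comparisons that use resting KO cells. For LPS in KO the 1 called member became 2 with no filter on low counts, 0 with the groups compared alone, 7 with limma-voom weights, 3 with the replicate block and 1 to 7 with 1 library left out. For KO against WT at rest 4 members became 0 with the groups alone, 2 with weights and 1 to 6 with 1 library left out. For KO against 3′F at rest 3 members became 5 with DESeq2, 5 with no filter, 0 with the groups alone, 1 with weights and 1 to 7 with 1 library left out. For LPS in WT 6 members became 7, with Slfn9 added, with no filter, with the groups alone, with weights and without LPS replicate 2. For LPS in 3′F 6 members became 3 to 6 with 1 library left out. With LPS, KO against WT went from 0 to 1 with weights and KO against 3′F from 0 to 3 with the groups alone (Slfn1, Slfn5 and Slfn9). The causes were not tested beyond the libraries named above.

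Directions turned for members that were not called. With limma-voom weights these were KO against WT at rest for Slfn8 (-0.19) and Slfn9 (-0.30), 3′F against WT for Slfn4 at rest (-0.13) and for Slfn1 (0.23) and Slfn4 (0.37) with LPS, KO against 3′F at rest for Slfn8 (-0.27), and the interactions of KO for Slfn9 (0.74) and of 3′F for Slfn4 (0.50) and Slfn9 (0.14). With the replicate block they were 3′F against WT with LPS for Slfn1 (0.53) and Slfn4 (0.51) and the 3′F interaction for Slfn4 (0.21) and Slfn9 (0.076).

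With 1 library left out at a time, KO against WT ran from -0.31 to 1.39 for Slfn9 at rest, and with LPS from -0.21 to 1.65 for Slfn4 and -0.0045 to 0.86 for Slfn9. KO against 3′F at rest ran from -0.042 to 2.04 for Slfn8 and -0.063 to 1.64 for Slfn9. The KO interaction ran from -1.71 to 0.087 for Slfn3 and -1.08 to 0.61 for Slfn9. For 3′F against WT at rest the ranges were -0.15 to 0.036 for Slfn3, -0.52 to 0.47 for Slfn4, -0.022 to 0.32 for Slfn5 and -0.084 to 0.29 for Slfn8. With LPS they were -0.80 to 0.84 for Slfn1, -0.15 to 0.17 for Slfn2, -0.46 to 0.067 for Slfn3, -0.78 to 1.08 for Slfn4, -0.27 to 0.34 for Slfn5, -0.26 to 0.47 for Slfn8 and -0.65 to 0.22 for Slfn9. The 3′F interaction ran from -0.41 to 0.12 for Slfn3, -0.82 to 1.03 for Slfn4, -0.40 to 0.21 for Slfn5, -0.30 to 0.43 for Slfn8 and -0.40 to 0.47 for Slfn9.

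Libraries of one replicate number within a genotype deviated together weakly, with correlations from 0.028 to 0.32, 5 of the 9 above 0.1. Every number except KO 3 (0.044 against 0.12) correlated best with its own number, though only narrowly for 3′F 1 (0.048 against 0.036). The labels do not say that a number is a mouse, and the number was not taken as a pairing. The block changed the calls of Slfn5 and Slfn8 for LPS in KO (adjusted p = 0.0135 and 0.0119), of Slfn9 for LPS in 3′F (0.0405) and of Slfn4 for resting KO against WT (0.0514) and 3′F (0.0534), and no other call of a member. Between genotypes the block joined libraries of one number that came from different mice. Their deviations correlated at -0.29 to 0.21, so the block values of those comparisons have little meaning. The lists without resting KO replicate 3 were added after seeing the data. Of all tested genes, limma-voom weights called 5218, 6073 and 5478 for LPS in WT, KO and 3′F against 3240, 3059 and 3546, and 2259 for KO against WT at rest against 1067, which fell to 396 with the groups alone and to 700 or fewer without 1 resting WT library. For KO against 3′F at rest 1464 became 16 with the groups alone, 2916 with weights, 918 without resting KO replicate 3 and 735 without resting 3′F replicate 3. With LPS, KO against WT went from 544 to between 180 and 1777 and KO against 3′F from 441 to between 142 and 1842. The KO interaction went from 1 to between 0 and 57, and 3′F against WT stayed at 2 or fewer in both states. Counts of 1 to 25 per resting WT or 3′F library limit what can be said of Slfn1 and Slfn4.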
